A study of Mus musculus with 15 samples.

Results

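A set of 10 genes of the smooth muscle contractile programme, here called the contractile genes, were followed in mouse embryonic stem cells on single-colour Agilent arrays. They were chosen by name, as Acta2, Tagln, Tagln2, Cnn1, Cnn2, Myl9, Tpm1, Tpm2, Actg2 and Flna. Earlier results of these data were known when they were chosen, so their counts beside all genes are descriptive only. These 10 genes were read by 17 of the 55681 non-control probes, and the probes that could be named covered 21368 genes. Of the 10 genes, 9 were measured well enough to be tested among 14451 genes, and Actg2 was not.

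The 5 groups had 3 arrays each. Map3k3 cells with Dox were Nat1-null cells carrying a tet-inducible Map3k3 transgene and cultured with doxycycline (Dox), the drug that switches such a transgene on. Map3k3 cells without Dox carried the same transgene and were cultured without the drug. EGFP cells with Dox were Nat1-null cells with a tet-inducible EGFP transgene, a fluorescent protein that serves as the control transgene. Nat1-null cells had no transgene named in their labels, and wild-type cells were the only group not labelled Nat1-null. All 5 groups were grown on gelatin, per the labels. Map3k3 encodes MEKK3, which phosphorylates kinases that in turn activate MAP kinases. The comparisons ask which contractile transcripts differ without Nat1 and which differ when Map3k3 is induced in cells that lack Nat1. The labels do not give the number of lines or clones, the dose or duration of Dox, or whether the 3 samples of a group came from separate cultures. The p-values therefore measure only the spread between these samples, which may be technical.

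Serum response factor (SRF) is a transcription factor that binds a DNA element called the CArG box. Its cofactors of the myocardin family include Mrtfa and Mrtfb, which are held in the cytoplasm by monomeric actin and enter the nucleus when actin polymerises. Many genes of actin filaments and of the contractile apparatus are targets of this pathway, and it is best known from smooth muscle and from fibroblasts that turn into contractile myofibroblasts. Another class of cofactors, the ternary complex factors, acts downstream of MAP kinases on immediate early genes. Among the contractile genes, Acta2 and Actg2 encode smooth muscle actins, and Tagln (SM22) and its relative Tagln2 encode actin-bundling transgelins. Cnn1 and Cnn2 encode calponins, which bind actin and restrain myosin. Myl9 encodes a regulatory light chain of non-sarcomeric myosin. Tpm1 and Tpm2 encode tropomyosins, which lie along the actin filament, and Flna encodes filamin A, which crosslinks filaments.

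Promoter sequence was set beside the members because CArG boxes are the best known feature of this gene class. A CArG box is CC, then 6 bases that are each A or T, then GG, and the pattern reads the same on both strands. RefSeq windows of 250 bases before to 50 after the annotated start, on build GRCm38.p6, were at hand for 8 of the 10 genes. A box was found in 2 of the 8 windows, those of Cnn2 and Myl9, and in 535 of all 32851 windows (1.63%). A looser form, with 1 inner base G or C, was found in the windows of Acta2 and Myl9 and in 2792 of all windows (8.50%). The windows of Tagln2, Cnn1, Tpm1, Tpm2 and Flna held neither form, which says only that these letters are not in those windows. The 3 upstream sequences with a match are shown 5′ to 3′ and end at the base before the annotated start, with the matches in capitals.
Acta2, GRCm38.p6 chr19:34255374-34255623, minus strand: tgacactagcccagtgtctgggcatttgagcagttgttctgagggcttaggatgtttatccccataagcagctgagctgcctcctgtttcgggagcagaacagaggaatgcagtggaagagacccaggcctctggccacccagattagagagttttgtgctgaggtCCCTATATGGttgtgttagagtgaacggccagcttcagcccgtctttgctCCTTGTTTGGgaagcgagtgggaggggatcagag
Cnn2, GRCm38.p6 chr10:79988350-79988599, plus strand: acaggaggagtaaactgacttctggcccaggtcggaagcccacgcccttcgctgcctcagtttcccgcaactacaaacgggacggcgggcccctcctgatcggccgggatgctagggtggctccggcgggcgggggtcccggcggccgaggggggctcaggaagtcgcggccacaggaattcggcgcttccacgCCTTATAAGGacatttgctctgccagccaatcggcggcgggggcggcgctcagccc
Myl9, GRCm38.p6 chr2:156775214-156775463, plus strand: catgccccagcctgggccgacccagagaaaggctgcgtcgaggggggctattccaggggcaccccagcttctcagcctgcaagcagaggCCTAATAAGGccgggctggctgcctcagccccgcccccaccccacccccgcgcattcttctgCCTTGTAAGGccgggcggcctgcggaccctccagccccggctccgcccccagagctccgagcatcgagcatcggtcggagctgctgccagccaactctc
The Acta2 sequence holds 2 looser matches, CCCTATATGG with its first base at position -84 and CCTTGTTTGG at -34, where -1 is the last base before the start. The Cnn2 sequence holds the box CCTTATAAGG at -56. The Myl9 sequence holds the box CCTAATAAGG at -161 and the looser match CCTTGTAAGG at -99. These are matches of letters, and binding was not measured.

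Values are log2 of the processed signal minus the 75th percentile of the same array, so 0 is the 75th percentile itself. The 75th percentile lay between 556 and 696 units, 42.7 to 53.9% of probes were well above background, and no spot was saturated. The gene that the labels call Nat1 is Eif4g2 in current nomenclature. Its probe lay at 1.54 to 1.64 in Map3k3 cells with Dox, 1.43 to 1.72 in Map3k3 cells without Dox, 1.36 to 1.85 in EGFP cells with Dox and 1.496 to 1.86 in Nat1-null cells, against 4.14 to 4.40 in wild-type cells. The sources used here do not say which part of the gene was removed. The Map3k3 probe lay at -0.67 to -0.36 with Dox and -0.86 to -0.44 without Dox, and was not called. Whether it reads the transgene was not tested. Of 8 embryonic stem cell markers, 5 were called higher and 0 lower in Nat1-null than in wild-type cells, against 17.3% and 20.5% of all genes. They were led by Klf4, Sox2, Nanog and Esrrb with log2 differences of 3.26, 1.70, 1.26 and 1.13. In Map3k3 cells with against without Dox 0 were called higher and 3 lower, against 12.3% and 5.58% of all genes. The 3 were Sox2 (-0.65), Esrrb (-0.61) and Pou5f1 (-0.60). None of the 8 markers had overlapping arrays, against 50% of all genes without overlap. Their summed level, in multiples of the 75th percentile, was 574 to 607 in Map3k3 cells with Dox, 829 to 862 in Map3k3 cells without Dox, 806 to 851 in EGFP cells with Dox and 805 to 862 in Nat1-null cells, against 403 to 424 in wild-type cells. The sum was thus highest in the groups where the contractile genes that fell were lowest, and its part in the results was not tested.

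Nat1-null cells held far less of most contractile transcripts than wild-type cells. A gene was called changed at an adjusted p under 0.05 and a difference of at least 1.5-fold, from limma over all 14451 genes with Benjamini-Hochberg adjustment. Of the 9 genes tested 7 fell, 0 rose and 2 were not called, while 20.5% of all genes were called lower in this comparison and 17.3% higher. The median log2 difference was -2.995 over the 9 genes, against 0.07 over all genes tested. In 8 of the 9 genes the 3 arrays of each group did not overlap, as in 71.8% of all genes. The microarrays measure cell populations, so fewer cells with a transcript and less of it per cell cannot be told apart.

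Acta2, the smooth muscle actin that marks myofibroblasts, fell the most of the 9 genes. Its log2 signals were -4.38, -4.81 and -4.91 in Nat1-null cells, against 2.50, 2.70 and 2.75 in wild-type cells. Only 1 of the 3 null arrays was well above background, so the null level is close to the limit of the assay. The log2 difference was -7.35 (SE 0.21), 164-fold lower, with an adjusted p of 1.54e-10 in limma.
Actg2, the enteric smooth muscle actin, had a single probe that was well above background on 1 of 15 arrays, a wild-type one. Its signals of -6.86 to -4.10 over all arrays give it no comparison.
Cross-hybridisation between probes for the closely related actins was not tested, because probe sequences were not used here.

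Myl9, the myosin light chain, and Cnn1, the smooth muscle calponin, followed. Myl9 read -1.95, -2.14 and -2.28 in Nat1-null cells, against 3.26, 3.28 and 3.12 in wild-type cells. It was 40.5-fold lower, a log2 difference of -5.34 (SE 0.19, limma adjusted p 6.94e-10). The groups were far apart beside the spread within either. Cnn1 read -1.72, -1.11 and -1.75 in Nat1-null cells, against 3.48, 3.50 and 3.42 in wild-type cells. It was 31.9-fold lower (log2 -4.996, SE 0.28, limma adjusted p 3.32e-08). Both were well above background on all 3 null arrays, so these folds are not set by the detection limit. Tagln, which stabilises actin bundles, read 1.47, 1.65 and 1.68 in Nat1-null cells, against 6.03, 5.97 and 6.15 in wild-type cells. It was 21.9-fold lower (log2 -4.45, SE 0.16, limma adjusted p 7.17e-10).

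The remaining members fell less or were not called. Cnn2, the calponin found in many non-muscle cells, read -0.08, 0.49 and 0.09 in Nat1-null cells, against 3.22, 3.12 and 3.14 in wild-type cells, 7.97-fold lower. Tpm1 by its brightest probe read 2.27, 1.84 and 2.15 in Nat1-null cells, against 4.27, 4.23 and 4.25 in wild-type cells, 4.49-fold lower. In both genes every null array lay below every wild-type array. Tpm2 read 1.03, 0.86 and 1.02 in Nat1-null cells, against 2.56, 2.70 and 2.57 in wild-type cells, 3.11-fold lower. The limma adjusted p was 1.83e-07 for Cnn2, 1.03e-07 for Tpm1 and 9.40e-09 for Tpm2. Flna, the filamin, read 5.83, 5.91 and 5.77 in Nat1-null cells, against 6.23, 6.20 and 6.29 in wild-type cells. These did not overlap, but the log2 difference of -0.40 (limma adjusted p 0.00173) was below the fold minimum. Tagln2 read 6.41, 5.98 and 6.41 in Nat1-null cells, against 6.23, 6.14 and 6.12 in wild-type cells. The groups overlapped and the log2 difference was 0.10 (SE 0.14, limma adjusted p 0.552). In the calponin and transgelin pairs the member best known from smooth muscle had the more negative log2 difference. Cnn1 stood at -4.996 beside Cnn2 at -2.995, and Tagln at -4.45 beside Tagln2 at 0.10. The tropomyosin pair stood at -2.17 for Tpm1 and -1.64 for Tpm2. Each gene was read by its own probe, with no test between the genes.

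**Figure D1:**
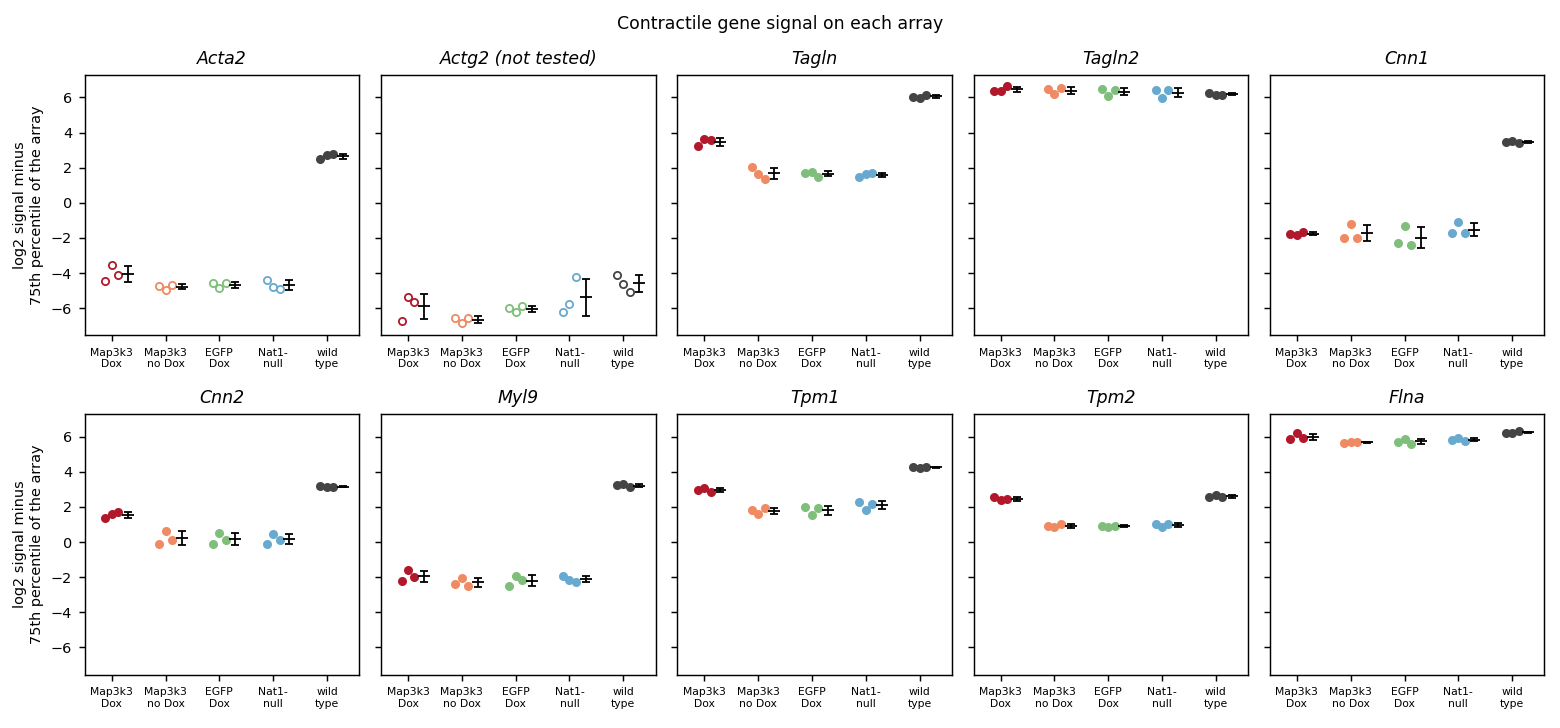
Log2 signal minus the 75th percentile of the array (vertical axis) for the 10 contractile genes, by the probe used for each, in the 5 groups from Map3k3 with Dox on the left to wild-type on the right. Each point is 1 array, the bar beside each group is the mean with its SD over 3 arrays, and open points mark groups in which fewer than 3 arrays were well above background; wild-type arrays stand above all others for Acta2, Tagln, Cnn1, Cnn2, Myl9 and Tpm1, and the Map3k3 arrays with Dox reach the wild-type range for Tpm2.

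The other 2 groups of Nat1-null cells without induced Map3k3 gave no call of a contractile gene against Nat1-null cells. EGFP cells with Dox against Nat1-null cells gave 0 calls among the 9 genes, where 0.00692% of all genes were called, and 0 of the 9 had an unadjusted p under 0.05. Map3k3 cells without Dox against Nat1-null cells also gave 0 calls in limma, with 0% of all genes called and 1 of the 9, Tpm1, at an unadjusted p under 0.05. The median log2 differences over the 9 genes were -0.07 and -0.09 in these comparisons, against -0.03 and -0.04 over all genes. The largest log2 differences among the 9 were those of Cnn1 (-0.46, SE 0.28) for EGFP cells with Dox against Nat1-null cells and Tpm1 (-0.31, SE 0.14) for Map3k3 cells without Dox against Nat1-null cells. In Cnn1 the array numbered 2 was the highest of its group in each of Map3k3 cells without Dox (-1.19), EGFP cells with Dox (-1.31) and Nat1-null cells (-1.11), where the other arrays lay between -2.38 and -1.72. Arrays with equal numbers deviated together in these groups, so the differences within numbers are given too. For Cnn1 in EGFP cells with Dox minus Nat1-null cells they were -0.54, -0.20 and -0.63. For Tpm1 they were -0.30, -0.31 and -0.20 in EGFP cells with Dox minus Nat1-null cells, and -0.46, -0.27 and -0.20 in Map3k3 cells without Dox minus Nat1-null cells. All of these were below 0, but with the replicate number as a block neither gene passed the threshold, with limma adjusted p of 0.270 for Cnn1, and of 0.249 and 0.132 for Tpm1.

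Induction of Map3k3 was accompanied by higher levels of some contractile genes and not of others. In Map3k3 cells with Dox against Map3k3 cells without Dox, 5 of the 9 genes rose, 0 fell and 4 were not called, where 12.3% of all genes were called higher and 5.58% lower. With the replicate number as a block Acta2 was not called, which left 4 of the 9. Without the fold minimum 6 of the 9 genes were higher and 0 lower, while 2609 of all genes were higher and 3145 lower, so the direction of the balance over all genes depends on that minimum. The median log2 difference was 0.74 over the 9 genes and -0.07 over all genes. That median is the value of Acta2 itself, which was near background, and its neighbours in the order are Myl9 at 0.36 and Tpm1 at 1.19. Against EGFP cells with Dox the same Map3k3 arrays gave 5 genes higher and 0 lower, where 12.4% of all genes were called higher and 5.67% lower, with a median of 0.62 over the 9 genes, again that of Acta2, and -0.09 over all genes. There too the replicate block left 4 of the 9, and without the fold minimum 2595 of all genes were higher and 3394 lower. Both comparisons use the same 3 arrays with Dox, so they are not independent of each other. In 6 of the 9 genes the arrays did not overlap in either comparison, against 50% and 49.3% of all genes.

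Tagln rose the most of the 9 genes by its brightest probe. Its log2 signals were 3.23, 3.63 and 3.57 in Map3k3 cells with Dox, against 2.03, 1.62 and 1.36 in Map3k3 cells without Dox. The log2 difference was 1.81 (SE 0.16), 3.50-fold, with a limma adjusted p of 3.54e-06. EGFP cells with Dox read 1.68, 1.77 and 1.49, and the difference from them was 1.83 on the log2 scale (limma adjusted p 3.08e-06). Every induced array was above every uninduced and EGFP array. Wild-type cells still stood 5.95-fold above the induced cells (log2 -2.57, limma adjusted p 5.63e-08).

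By the brightest probe of each gene, Tpm2 was the member whose induced level came nearest to wild-type among those that had fallen in null cells. It read 2.58, 2.38 and 2.44 in Map3k3 cells with Dox, against 0.90, 0.83 and 1.04 in Map3k3 cells without Dox. It rose 2.91-fold (log2 1.54, SE 0.08, limma adjusted p 3.69e-08). The induced arrays overlapped the wild-type arrays of 2.56 to 2.70, with a log2 difference of -0.14 (SE 0.08, limma adjusted p 0.133). A second Tpm2 probe gave 1.53 for Map3k3 with against without Dox and -0.27 for Map3k3 with Dox against wild-type, also not called. One of the other Tpm1 probes, A_55_P2032192, was nearer to wild-type than this second Tpm2 probe, at a log2 difference of 0.19. Cnn2 read 1.37, 1.59 and 1.72 in Map3k3 cells with Dox, against -0.13, 0.64 and 0.11 in Map3k3 cells without Dox. It rose 2.55-fold (log2 1.35, SE 0.21, limma adjusted p 0.000358) and stayed 3.03-fold below wild-type. The induced Cnn2 arrays lay between those of the uninduced and the wild-type cells, without overlap. Tpm1 by its brightest probe read 2.97, 3.09 and 2.85 in Map3k3 cells with Dox, against 1.81, 1.57 and 1.94 in Map3k3 cells without Dox. It rose 2.29-fold (log2 1.19, SE 0.14, limma adjusted p 4.42e-05) and stayed 2.43-fold below wild-type.

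Acta2 was called at the edge of detection. It read -4.47, -3.55 and -4.12 in Map3k3 cells with Dox, against -4.72, -4.95 and -4.70 in Map3k3 cells without Dox and -4.59, -4.86 and -4.55 in EGFP cells with Dox. Of these arrays 1 of 3, 2 of 3 and 1 of 3 were well above background. The log2 difference was 0.74 (SE 0.21, limma adjusted p 0.0136) against uninduced cells and 0.62 (limma adjusted p 0.0306) against EGFP cells. With the replicate number as a block the adjusted p was 0.0967 and 0.151, and without the induced array numbered 2, the one with the lowest share of detected probes (42.7%), the log2 differences were 0.49 and 0.37, below the fold minimum. With normexp background correction they were 0.21 and 0.05 (adjusted p 0.0879 and 0.690), and in the slide row that holds 1 induced and all 3 uninduced arrays the difference was 0.32. The call therefore rests on signals near background. All induced arrays stayed far below wild-type, by -6.70 on the log2 scale.

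The other members showed no call. Myl9 read -2.24, -1.60 and -1.99 in Map3k3 cells with Dox, against -2.38, -2.03 and -2.50 in Map3k3 cells without Dox, overlapping groups with a log2 difference of 0.36 (SE 0.19, limma adjusted p 0.148). Cnn1 read -1.77, -1.82 and -1.67 in Map3k3 cells with Dox, against -2.02, -1.19 and -1.98 in Map3k3 cells without Dox, with a log2 difference of -0.03 (SE 0.28, limma adjusted p 0.949). Within equal replicate numbers Myl9 differed by 0.14, 0.43 and 0.50 from uninduced cells and by 0.28, 0.31 and 0.17 from EGFP cells, all above 0. With the replicate number as a block Myl9 was still not called. Cnn1 differed from uninduced cells by 0.25, -0.64 and 0.31 within numbers. Myl9 and Cnn1 stayed 35.8-fold and 37.3-fold below wild-type. Flna read 5.88, 6.19 and 5.90 in Map3k3 cells with Dox, against 5.62, 5.72 and 5.67 in Map3k3 cells without Dox. These did not overlap, and the log2 difference of 0.32 (limma adjusted p 0.0137) was below the fold minimum. Tagln2 read 6.34, 6.38 and 6.62 in Map3k3 cells with Dox, against 6.45, 6.16 and 6.53 in Map3k3 cells without Dox, and overlapped (log2 0.07, limma adjusted p 0.744).

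**Figure D2:**
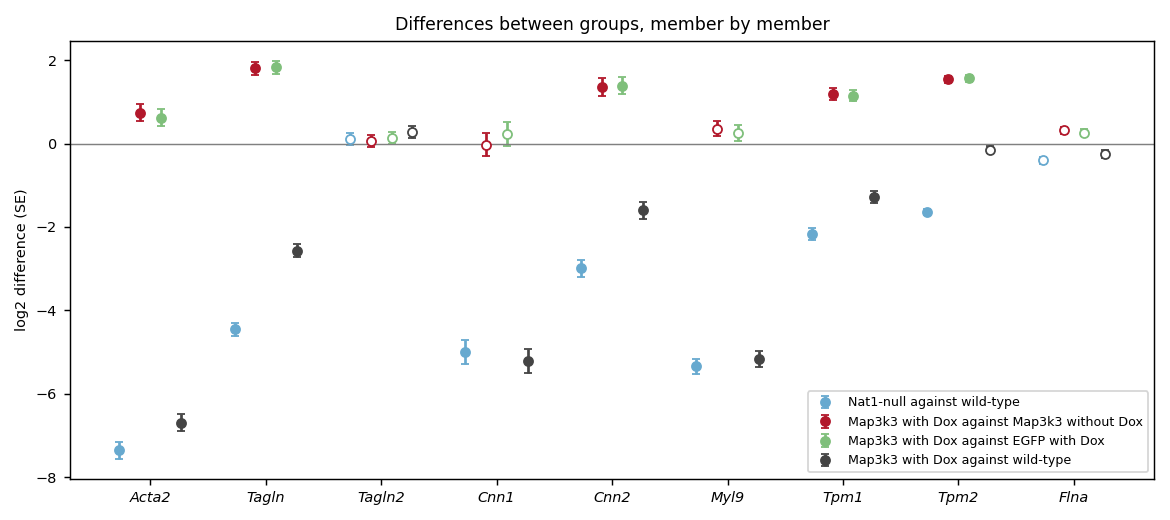
Log2 difference (vertical axis) with its SE for the 9 tested contractile genes in 4 comparisons, first group minus second. Filled points were called and open points were not; Tagln has the highest points for induced Map3k3 (1.81 and 1.83), and Cnn1 and Myl9 lie near 0 there while staying more than 5 log2 units below wild-type.

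Set against wild-type cells, the levels in induced cells differed widely between the contractile genes. As a percentage of the wild-type signal of the same probe, Tpm2 reached 90.5% in Map3k3 cells with Dox, against 31.1% without Dox. Tpm1 reached 41.1% with Dox, against 17.97% without Dox, and Cnn2 33.0% with Dox, against 12.9% without Dox. Tagln reached 16.8% with Dox, against 4.80% without Dox. Myl9 stood at 2.79% with Dox and 2.18% without Dox, and Cnn1 at 2.68% with Dox and 2.73% without Dox. Acta2, well above background on 1 of 3 arrays with Dox and 2 of 3 without Dox, is given no percentage. These values are those of the brightest probe, and in 2 genes the other probes differ. The second Cnn2 probe stood at 48.4% with Dox and 32.8% without Dox. The other Tpm1 probes ranged from 40.4% to 114% with Dox and from 13.5% to 99.9% without Dox. In Map3k3 cells with Dox against wild-type cells, 6 of the 9 genes were called lower and 0 higher, where 19.9% of all genes were called lower and 18.4% higher. The 3 not called were Tagln2, Tpm2 and Flna.

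The difference between the rise with Map3k3 and the gap between wild-type and null cells was tested in one contrast of 4 groups that share no array. It was past an adjusted p of 0.05 for 45.3% of all genes. The rise fell short of the gap by 6.61 log2 units for Acta2, 5.02 for Cnn1, 4.99 for Myl9, 2.64 for Tagln, 1.64 for Cnn2 and 0.97 for Tpm1, with limma adjusted p-values of 2.09e-08 to 0.00186. For Tpm2 the shortfall was 0.10 (SE 0.11, adjusted p 0.518). For Flna it was 0.09 (SE 0.13, adjusted p 0.610), and a p that misses the threshold does not show that rise and gap are equal. Uninduced and induced cells lay on 1 slide, and wild-type and null cells on the other, so each change was measured within a slide, but Map3k3 with Dox against wild-type compares slides. Wild-type and null arrays lay in different rows of their slide. With slide or slide row as a block no call of a contractile gene changed in the comparisons with wild-type cells. This is a weak check, because EGFP cells with Dox were the only group with arrays on both slides. Only they and Map3k3 cells with Dox had arrays in both rows, so the block effects were estimated from those arrays alone.

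**Figure D3:**
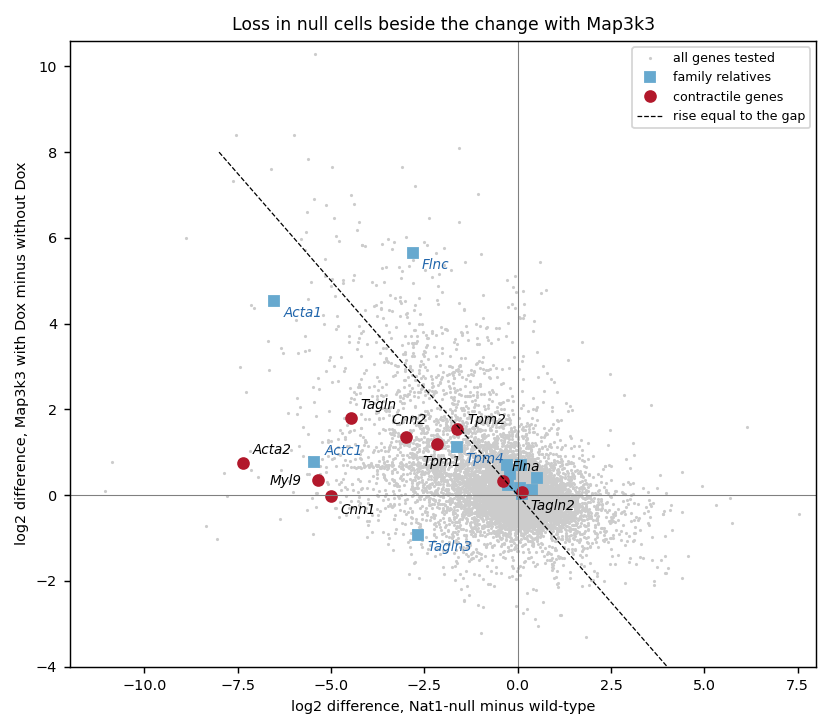
Log2 difference of Nat1-null minus wild-type cells (horizontal axis) beside that of Map3k3 cells with minus without Dox (vertical axis) for the 14451 genes tested in grey, 13 family relatives as squares and 9 contractile genes as circles. On the dashed line the rise equals the gap; Tpm2 lies on it, Tpm1, Cnn2 and Tagln lie below it, and Acta2, Myl9 and Cnn1 lie far to the left with vertical values of 0.74, 0.36 and -0.03.

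The 5 Tpm1 probes disagreed, and the gene gives several transcripts by alternative promoters, exons and ends. Probe A_55_P2032192, annotated to NM_001164249, read 3.39, 3.76 and 3.23 in Map3k3 cells with Dox, 0.58, 0.38 and 0.18 in Map3k3 cells without Dox, 0.39, 0.29 and 0.32 in EGFP cells with Dox, 0.52, 0.44 and 0.81 in Nat1-null cells, and 3.19, 3.28 and 3.34 in wild-type cells. The induced and wild-type arrays overlapped, and all other arrays lay far below them. With against without Dox the probe rose 8.45-fold (log2 3.08, limma adjusted p 2.01e-08 over 29791 probes, of which 15.7% were called). Its log2 difference from wild-type was 0.19 in induced cells (adjusted p 0.280) and -2.68 in null cells, comparisons in which 33.4% of probes were called in each case.

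Probe A_55_P2187053, annotated to NM_001164255, was level in all groups. It read 1.09, 1.23 and 1.18 in Map3k3 cells with Dox, 1.25, 1.25 and 1.11 in Map3k3 cells without Dox, 1.28, 1.11 and 1.32 in EGFP cells with Dox, 1.24, 1.23 and 1.15 in Nat1-null cells, and 1.29, 1.17 and 1.15 in wild-type cells. All 15 values lay between 1.09 and 1.32. Its log2 difference was -0.04 (SE 0.08) for Map3k3 with against without Dox and 0.00 (SE 0.08) for Nat1-null against wild-type. In both of these comparisons the log2 differences of the remaining 3 probes lay between those of A_55_P2032192 and A_55_P2187053. A_55_P2078680, annotated to NM_001164251, rose by 1.79 log2 units with against without Dox and fell by 2.48 in null cells. The other pair, both annotated to NM_001164248, rose by 1.19 and 1.15 and fell by 2.17 and 2.19. In induced against wild-type cells A_55_P2078680 stood at -0.77 and the pair at -1.28 and -1.31. These were below both A_55_P2032192 at 0.19 and A_55_P2187053 at -0.04.

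Each probe was also compared with the other probes of its gene by limma's diffSplice, over 8209 probes of 3729 genes. That test treats the probes of a gene as independent, although they were read on the same arrays. Its p-values may therefore be too small. For Map3k3 with against without Dox, 2.59% of those probes differed from the rest of their gene by at least 1.5-fold. A_55_P2032192 was above the other Tpm1 probes by 2.05 log2 units (adjusted p 2.99e-16) and A_55_P2187053 below them by 1.84 (-1.84, adjusted p 9.50e-15). For Nat1-null against wild-type, where 11% of probes differed, A_55_P2187053 was above the others by 2.38 (adjusted p 2.50e-19) and A_55_P2032192 stood at -0.98 (adjusted p 4.03e-07). Which exons the probes read was not analysed here. Of the other genes with several passing probes, Cnn2 had a second probe with smaller differences, -1.66 beside -2.995 for Nat1-null against wild-type (adjusted p of the difference 0.000235) and 0.56 beside 1.35 for Map3k3 with against without Dox (0.0711), so its second probe missed the fold minimum there. The 2 probes of Tagln2 and the 2 of Tpm2 did not differ past the threshold in these comparisons.

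**Figure D4:**
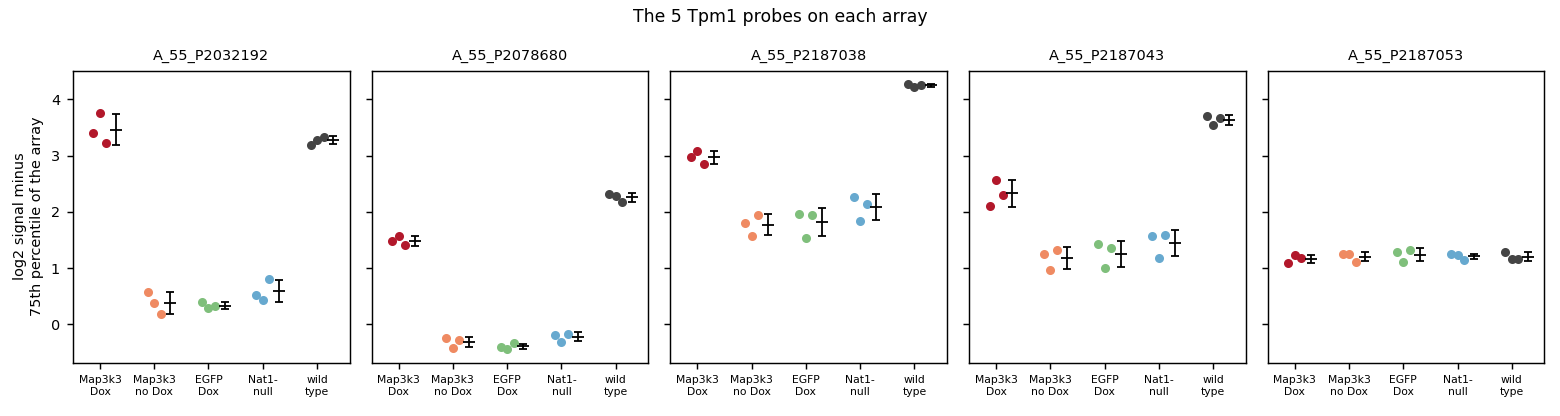
Log2 signal minus the 75th percentile of the array (vertical axis) for the 5 Tpm1 probes in the 5 groups, from Map3k3 with Dox on the left to wild-type on the right, with each array as a point and the mean with its SD over 3 arrays beside it. A_55_P2032192 is as high in Map3k3 cells with Dox as in wild-type cells, and A_55_P2187053 stays between 1.09 and 1.32 on all arrays.

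Relatives of the contractile genes, from the actin, transgelin, calponin, myosin light chain, tropomyosin and filamin families, split as well. In Nat1-null against wild-type cells 5 of 13 fell and 0 rose, where 20.5% of all genes were called lower and 17.3% higher. The median log2 difference of the 13 was -0.26. The skeletal and cardiac actins Acta1 and Actc1 were at least 69.0-fold and at least 27.7-fold lower, the muscle filamin Flnc 7.05-fold and the neuronal transgelin Tagln3 6.33-fold. These bounds set null values that were not well above background to the lowest detected signal of their array. In Map3k3 cells with against without Dox 6 rose and 1 fell, where 12.3% of all genes were called higher and 5.58% lower. The median of the 13 was 0.48. Flnc read 6.00, 6.12 and 6.03 in Map3k3 cells with Dox, against 0.26, 0.09 and 0.86 in Map3k3 cells without Dox, and 3.48, 3.38 and 3.52 in wild-type cells. It rose 50.2-fold (limma adjusted p 2.16e-09) and ended 6.01-fold above wild-type, unlike its relative Flna. Acta1 read -2.01, -1.62 and -1.63 in Map3k3 cells with Dox, against -5.90, -6.65 and -6.31 in Map3k3 cells without Dox, at least 11.7-fold higher. Tpm4 rose 2.18-fold and Tagln3 fell 1.89-fold. The cytoplasmic actins Actb and Actg1 were not called in either comparison by their brightest probes. Most of the dimmer Actg1 probes were lower in Nat1-null cells. A_52_P72237 averaged 5.31 there against 6.17 in wild-type cells, A_55_P1985984 5.55 against 6.29, and A_55_P2008907 6.80 against 7.48. A_55_P2114993 averaged 7.97 against 7.92, so the Actg1 probes disagreed in this comparison. Actc1 was called higher with Dox, but 0 of 3 arrays of either group were well above background, so it has no fold.

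Other actin and adhesion targets of SRF and its MRTF cofactors moved mostly in the same directions. In Nat1-null against wild-type cells 13 of 24 fell and 1 rose, where 20.5% of all genes were called lower and 17.3% higher. The median log2 difference of the 24 was -0.84, and the falls were led by Fhl2, Tgfb1i1, Ccn1 and Cald1. The gene that rose was Csrp2, the brightest of the list on average, at a mean of 7.04 in Nat1-null and 6.16 in wild-type cells. In Map3k3 cells with against without Dox 16 of 24 rose and 0 fell, where 12.3% of all genes were called higher and 5.58% lower. The median of the 24 was 0.72. Csrp2 averaged 6.52 in Map3k3 cells with Dox and 6.94 in Map3k3 cells without Dox, and was not called. Fhl2, a LIM-domain cofactor, read 3.79, 3.70 and 3.67 in Map3k3 cells with Dox, against -2.64, -3.76 and -2.75 in Map3k3 cells without Dox. It rose 109-fold and stood 2.82-fold above wild-type, while in null cells it was 35.3-fold below. Ccn1 (Cyr61), a secreted matricellular protein, rose 20.8-fold. Tgfb1i1 (Hic-5), a focal adhesion adaptor, rose 15.5-fold, with 2 of 3 uninduced arrays well above background. Cald1, the actin-binding caldesmon, rose 9.87-fold. The limma adjusted p was 1.32e-07 for Fhl2, 4.82e-07 for Ccn1, 1.03e-06 for Tgfb1i1 and 3.08e-06 for Cald1.

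The transcripts of SRF itself and of its MRTF cofactors were measured as well. Srf read 2.39, 2.60 and 2.41 in Map3k3 cells with Dox, against 2.61, 2.75 and 2.77 in Map3k3 cells without Dox (log2 -0.24), and was not called in any of the 4 comparisons that involve wild-type or induced cells. Mrtfa and Mrtfb had log2 differences of 0.41 and 0.58 with against without Dox (limma adjusted p 0.000362 and 0.000358). Both were below the fold minimum, Mrtfb narrowly at 1.498-fold, and were called higher than wild-type in induced cells (0.92 and 0.65). Myocd, the muscle-restricted cofactor, was called higher with against without Dox but was well above background on 0 of 3 arrays of either Map3k3 group, which gives no fold. It was at least 3.08-fold lower in Nat1-null than in wild-type cells. Of 8 immediate early genes, 0 rose and 4 fell in Nat1-null against wild-type cells, where 17.3% of all genes were called higher and 20.5% lower. The 4 were Egr2, Egr1, Fosb and Fos at -3.46, -1.65, -1.19 and -1.18. With against without Dox 1 rose (Fosb, log2 1.58) and 2 fell (Egr1, -1.28, and Ier2, -0.65), beside 12.3% and 5.58% of all genes. Against EGFP cells with Dox 1 rose (Fosb, 1.82) and 1 fell (Egr1, -0.905, with overlapping arrays), beside 12.4% and 5.67% of all genes. Ier2 was not called there. Egr1 averaged 1.07 in Map3k3 cells with Dox, 2.35 in Map3k3 cells without Dox, 1.98 in EGFP cells with Dox and 1.29 in Nat1-null cells.

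**Figure D5:**
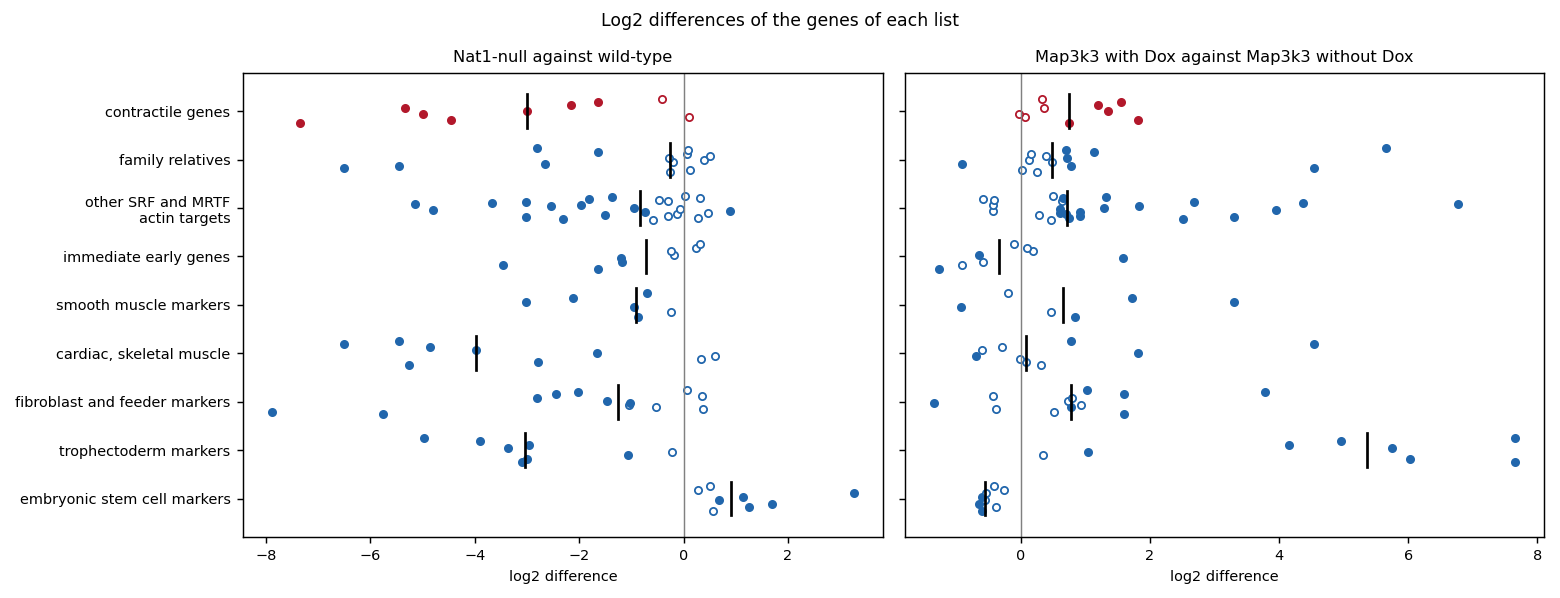
Log2 differences (horizontal axis) of the tested genes of each list, Nat1-null minus wild-type cells on the left and Map3k3 cells with minus without Dox on the right, with filled points for called genes, open points for the others and a black line at the median of each list. The contractile genes in red have medians of -2.995 and 0.74, and the trophectoderm markers have the highest median on the right, 5.36.

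Markers of the cell types that could carry contractile transcripts were read beside these results. Some lists share genes, so their counts are not independent. Among the markers, Cald1 and Myocd were already read above as SRF target and cofactor, and Acta1 and Actc1 as relatives. Their counts stand beside 20.5% of all genes called lower and 17.3% higher in Nat1-null against wild-type cells. For Map3k3 with against without Dox the shares were 12.3% higher and 5.58% lower. Myh11, the smooth muscle myosin heavy chain, was not well above background on all 3 arrays of any group and was not tested. Of 11 smooth muscle markers 6 were tested, and in Nat1-null against wild-type cells 5 fell and 0 rose. With against without Dox 3 rose (Cald1, Smtn and Myocd, the last without a detected level) and 1 fell (Ldb3). Their summed level, in multiples of the 75th percentile, was 11.0 to 13.0 in Map3k3 cells with Dox, 6.48 to 8.16 in Map3k3 cells without Dox, 6.72 to 7.59 in EGFP cells with Dox and 7.35 to 8.54 in Nat1-null cells, against 14.2 to 15.9 in wild-type cells. Smtn alone made up 65.8 to 72.7% of this sum. Of 9 cardiac and skeletal muscle markers tested, 7 fell and 0 rose in null cells. With against without Dox 3 rose (Acta1, Nkx2-5 and Actc1, the last without a detected level) and 1 fell (Tnni3, with overlapping arrays). The sum of the 9 was 1.28 to 1.496 in Map3k3 cells with Dox, 0.812 to 1.35 in Map3k3 cells without Dox, 0.815 to 1.28 in EGFP cells with Dox and 0.879 to 1.80 in Nat1-null cells, against 18.6 to 20.3 in wild-type cells. Myh6 and Myh3 made up 77.4 to 78.3% of it in wild-type cells.

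Of 12 fibroblast and feeder markers tested, 7 fell and 0 rose in Nat1-null against wild-type cells, beside 20.5% and 17.3% of all genes. Col1a2 was at least 211-fold and Col1a1 54.3-fold lower. The sum over the 12 was 108 to 154 in Map3k3 cells with Dox, 127 to 159 in Map3k3 cells without Dox, 131 to 149 in EGFP cells with Dox and 109 to 128 in Nat1-null cells, against 128 to 131 in wild-type cells. Fn1 and Vim made up 79.0 to 97.8% of it on every array. Without this pair the sum was 4.83 to 7.25 in Map3k3 cells with Dox, 3.51 to 4.08 in Map3k3 cells without Dox, 3.60 to 3.68 in EGFP cells with Dox and 4.01 to 4.50 in Nat1-null cells, against 24.9 to 27.5 in wild-type cells. It thus lay highest in wild-type cells, as the contractile genes that fell did, and its part in their result was not tested. With against without Dox 5 rose, among them S100a4 13.8-fold, and 1 fell, Thy1 2.55-fold, beside 12.3% and 5.58% of all genes. Pdgfra, Lum and Postn were not tested because they were not well above background on all 3 arrays of any group.
Of 8 trophectoderm markers 7 fell in Nat1-null against wild-type cells, beside 20.5% of all genes. With against without Dox 7 rose, beside 12.3% of all genes. Hand1, Cdx2 and Gata3 were at least 81.2-fold, at least 69.9-fold and at least 63.3-fold higher in Map3k3 cells with Dox. The sum was 331 to 391 in Map3k3 cells with Dox, 11.9 to 23.3 in Map3k3 cells without Dox, 10.9 to 23.0 in EGFP cells with Dox and 12.1 to 26.9 in Nat1-null cells, against 185 to 190 in wild-type cells. Krt18 alone made up 84.8 to 86.5% of it in Map3k3 cells with Dox. Without Krt18 the sum was 48.0 to 59.3 in Map3k3 cells with Dox, 6.42 to 7.73 in Map3k3 cells without Dox, 5.57 to 7.93 in EGFP cells with Dox and 6.52 to 10.2 in Nat1-null cells, against 29.5 to 30.3 in wild-type cells. Most of these markers thus moved in the direction of the called contractile genes in both comparisons. Their sum in Map3k3 cells with Dox was above wild-type, whereas 6 of the 9 contractile genes were called below wild-type there and 0 above. The part of these markers in the contractile gene result was not tested.

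Acta2 was followed most closely by genes that separate wild-type from all other arrays. Over the 15 arrays the 8 other genes with the highest Pearson correlation to Acta2 were Hmgxb4, Klhl13, Magel2, Col1a2, Actc1, Dll3, Adgrg5 and Zfp867, with r of 0.996 for Hmgxb4 to 0.992 for Zfp867. Hmgxb4 averaged 2.68 ± 0.14 in Map3k3 cells with Dox, 2.28 ± 0.02 in Map3k3 cells without Dox, 2.36 ± 0.13 in EGFP cells with Dox and 2.41 ± 0.10 in Nat1-null cells, against 4.62 ± 0.09 in wild-type cells (SD, n = 3 arrays each). Among the contractile genes r with Acta2 was 0.99 for Myl9, 0.98 for Cnn1, 0.94 for Tagln, 0.92 for Tpm1, 0.91 for Cnn2, 0.83 for Flna, 0.72 for Tpm2 and -0.38 for Tagln2. The 3 wild-type arrays stand apart from the other 12 in most of these genes, so r describes that split.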

How the data were processed

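RNA of 15 samples was hybridised to Agilent arrays and read with Feature Extraction 11.5.1.1, protocol GE1_1105_Oct12, per the file headers. The deposited processed green signal is an intensity, already corrected for background by the authors' software. Its log2 was taken here, spots of a probe were averaged, and the array's 75th percentile was subtracted; the authors' deposited log2 values correlated with these at 1. Symbols came from RefSeq accessions, which named 28331 of 55681 probes. Probes were kept if some group had them well above background on each of its 3 arrays (29791), and the brightest represented its gene.

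One limma 3.58.1 model (R 4.3.3) with 5 group means was fitted to 15 arrays, with moderated two-sided tests and Benjamini-Hochberg adjustment over 14451 genes. The groups were compared in 6 pairs. The contractile genes and lists were chosen with earlier results of these data known, and the probe comparison within genes was added after seeing the data. All 10 contractile genes, up to 4 called genes per list with the largest change, and Srf, Mrtfa, Mrtfb, Myocd and Myh11 are named by rule. The result of 1 gene list is not reported here. Simulated data for Map3k3 with against without Dox had independent noise, with 100 of 14451 genes changed by 1 log2 unit and 100 by 2. Of these changes 78% and 94% were recovered. In the data 17.9% of genes were called and arrays with equal numbers deviated together, so these rates need not hold there. Equal replicate numbers were checked by correlating deviations from group means over the tested genes. In Map3k3 cells with and without Dox r was 0.17, 0.34 and 0.26, and for Map3k3 and EGFP cells with Dox 0.11, 0.34 and 0.20. Against Nat1-null cells it was 0.26, 0.58 and 0.39 for EGFP cells with Dox, and 0.29, 0.63 and 0.42 for Map3k3 cells without Dox. With wild-type arrays r was -0.03 to 0.06. A fit with the replicate number as a block was therefore run as a check. The p-values and calls come from the main model, which has no such block, unless another setting is named.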

Additional observations from a re-analysis of the deposited data

How the results depend on the processing

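Of the 54 differences of contractile genes, none that was called reversed under any alternative run. These were quantile normalization, normexp correction (on median spot signals, since the mean signal was not among the columns used), other filters, the authors' values, the mean of a gene's probes, slide or slide row as a block, an intensity trend, 2 groups only, the replicate block and leaving out each array. The calls that were lost were all those of Acta2 with induced Map3k3, where over all settings the log2 difference ranged from 0.21 to 0.96 against uninduced and 0.05 to 0.83 against EGFP cells. Besides those in the report, the call was lost with slide row as a block (0.59, adjusted p 0.104, against uninduced cells), with 2 groups only (adjusted p 0.0669 and 0.112), and, against EGFP cells, without a filter (0.0529), without Map3k3 with Dox array 3 (0.0532) and without EGFP array 1 (0.0546) or 2 (0.0956). Acta2 has no value with probes detected on all 15 arrays. With the replicate block 4 contractile genes were called for induced against uninduced and against EGFP cells, in place of 5 each, and no other call of a contractile gene changed.

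Genes called for EGFP with Dox against Nat1-null cells were 2 with normexp, 19 with slide as a block, 0 with 2 groups only, 0 with the replicate block and 0 to 8 when 1 array was left out, against 1. For Map3k3 without Dox against Nat1-null cells they were 2 with normexp, 10 with probes detected on all arrays, 12 with slide as a block, 2 with slide row as a block, 3 with an intensity trend and 0 to 2 when 1 array was left out, against 0. With the filter on all 15 arrays 1721 genes were called for induced against uninduced cells, against 2582. Without a fold minimum 9113 genes were called for Nat1-null against wild-type (5026 higher, 4087 lower), 5754 for induced against uninduced cells (2609 higher, 3145 lower), 5989 for induced against EGFP cells (2595 higher, 3394 lower) and 8916 for induced against wild-type cells (4408 higher, 4508 lower). Of 96 Tpm1 probe settings 95 kept their call, and A_55_P2187053 lost it for Map3k3 with Dox against wild-type with slide as a block (0.78, adjusted p 0.0814). The cause of these changes was not tested. Signal over background limits Acta2 and Actg2.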
